A study of Homo sapiens with 5 samples.

Results

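The nuclear-encoded genes of oxidative phosphorylation were followed across U2OS osteosarcoma cells that contained increasing amounts of a YFP-tagged E2F1. Members were taken by gene name, from the families NDUFA, NDUFB, NDUFC, NDUFS, NDUFV, UQCR, COX4I, COX5, COX6, COX7, COX8 and ATP5 plus SDHA, SDHB, SDHC, SDHD and CYC1. The names matched 96 rows, from which 4 assembly factors and 2 pseudogenes were dropped. This left 90 of the 27992 genes counted, of which 38 belong to complex I, 4 to complex II, 10 to complex III, 19 to complex IV and 19 to complex V. By class, 85 are subunits, 3 are associated factors (COX7A2L, ATP5S and ATP5SL) and 2 are read-through transcripts. Of the 90 members, 80 reached at least 1 CPM (counts scaled to a common library size) in at least 1 library and were analysed: 37 of complex I, 4 of complex II, 10 of complex III, 12 of complex IV and 17 of complex V.

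One library came from parental U2OS cells. The other 4 came from U2OS pTRIPZ-YFP-ER-E2F1 cells sorted on YFP into a YFP-negative, a YFP-low, a YFP-medium and a YFP-high fraction. The name of the line gives an E2F1 fused to YFP and to ER, the oestrogen receptor part that OHT activates. All 4 fractions received 500 ng/ml doxycycline for 48 h, which induces the construct, and then 90 nM OHT for 20 h more, in medium with 8% fetal bovine serum. The labels list the same treatment for the parental library and give it no construct. The fractions come from a single construct line, so differences from parental cells include the line itself. The study asked how the amount of E2F1 relates to cell fate.

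Oxidative phosphorylation uses electrons from NADH (complex I) and succinate (complex II) to reduce quinone, which complex III oxidises to reduce cytochrome c, and complex IV passes these electrons to oxygen. Complexes I, III and IV pump protons across the inner mitochondrial membrane, and complex V, the ATP synthase, uses the return flow to make ATP. Most subunits are encoded in the nucleus and a few core ones in the mitochondrial genome. E2F1 is a transcription factor that drives S phase entry and can drive apoptosis.

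Gene reads numbered 70.7 to 76.5 M per library, and each group held 1 library. Differences given here therefore have no replicate check, and no difference between groups was tested. Parentheses after a fold hold its exact 95% interval, which covers counting error only. E2F1 itself had 86.1 CPM in parental cells, 106 in the YFP-negative, 163 in the YFP-low, 361 in the YFP-medium and 996 CPM in the YFP-high fraction, and thus followed the gates. Markers of the mesenchymal origin of U2OS summed to 4107 to 8075 CPM, with COL1A2 below 1 CPM in every library, while the 4 leukocyte markers summed to at most 0.596 CPM. The 4 epithelial markers summed to 454 CPM in YFP-high and 538 CPM in YFP-negative cells, nearly all KRT8 and KRT18, and EPCAM had 11.5 CPM in YFP-high and 3.27 CPM in YFP-negative cells. The mesenchymal sum was lowest in YFP-high, at 4107 CPM against 4826 CPM in YFP-negative, and the part of these markers in the results was not tested. In sorted bulk cells, fewer cells with a transcript and less of it per cell cannot be told apart.

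Promoters of 71 of the 90 members were available from RefSeq (build GRCh38.p14), each with 250 bases before and 50 after the transcription start. The promoters of 4 members are shown because they cover both ends of the response and both arrangements of E2F letters near other factors' letters. COX5A had the highest log2 ratio in YFP-high cells and NDUFV3 the lowest. NDUFS6 and COX8A hold E2F letters and were chosen after their values were seen. Capitals mark the letters searched on both strands, which were TTTCCCGC, TTTGGCGC and TTTCGCGC for E2F, GCATGCGC for NRF1, CCGGAAG for ETS factors such as GABPA, and AAGATGGC for YY1. The windows are chr15:74938024-74938323 (minus strand) for COX5A, chr21:42893059-42893358 (plus strand) for NDUFV3, chr5:1801157-1801456 (plus strand) for NDUFS6 and chr11:63974370-63974669 (plus strand) for COX8A.
COX5A: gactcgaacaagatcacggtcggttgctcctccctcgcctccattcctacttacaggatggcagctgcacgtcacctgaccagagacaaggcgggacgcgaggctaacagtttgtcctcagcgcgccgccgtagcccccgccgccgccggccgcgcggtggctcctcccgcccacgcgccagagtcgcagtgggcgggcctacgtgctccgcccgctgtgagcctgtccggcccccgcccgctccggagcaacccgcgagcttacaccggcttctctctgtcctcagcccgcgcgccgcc
NDUFV3: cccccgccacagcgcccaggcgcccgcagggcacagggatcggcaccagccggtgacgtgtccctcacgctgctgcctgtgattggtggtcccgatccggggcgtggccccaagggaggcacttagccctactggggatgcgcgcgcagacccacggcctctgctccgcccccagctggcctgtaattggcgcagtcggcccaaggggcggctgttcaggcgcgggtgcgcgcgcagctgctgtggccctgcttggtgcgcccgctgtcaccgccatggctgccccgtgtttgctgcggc
NDUFS6: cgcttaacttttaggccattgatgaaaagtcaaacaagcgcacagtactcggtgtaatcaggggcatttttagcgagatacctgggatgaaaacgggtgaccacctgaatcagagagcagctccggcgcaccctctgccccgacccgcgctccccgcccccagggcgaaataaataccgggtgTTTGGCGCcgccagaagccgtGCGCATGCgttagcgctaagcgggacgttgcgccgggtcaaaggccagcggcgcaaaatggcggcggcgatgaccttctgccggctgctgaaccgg
COX8A: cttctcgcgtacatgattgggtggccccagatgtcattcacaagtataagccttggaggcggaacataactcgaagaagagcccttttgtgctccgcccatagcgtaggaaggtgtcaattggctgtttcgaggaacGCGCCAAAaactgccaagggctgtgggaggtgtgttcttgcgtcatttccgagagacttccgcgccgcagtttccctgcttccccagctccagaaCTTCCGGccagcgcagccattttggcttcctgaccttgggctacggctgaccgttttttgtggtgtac
COX5A and NDUFV3 have no capitals, so none of these letters stand in their windows. In NDUFS6 the E2F letters begin at -67 from the start and the NRF1 letters, as read on the opposite strand, at -46. In COX8A the E2F letters begin at -113 and the ETS letters at -18, both as read on the opposite strand.

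In YFP-high cells the oxidative phosphorylation genes moved little while much of the transcriptome moved. The call rule asked for a log2 ratio of CPM (with 0.5 CPM added to both) past 1.5-fold, together with an interval of the fold that left out 1. By this rule 2 of 80 members were higher (COX5A and NDUFB10) and 3 were lower (NDUFV3 and COX7A2L among them) in YFP-high against YFP-negative cells, which is 6.25%. Over all 15109 analysed genes 29.3% were higher and 25.4% lower, 54.7% together. Most members are abundant, and over the 9112 genes with at least 20 CPM in a library the share was still 51.9%. The log2 ratios of the members had an SD of 0.30 across genes and ran between -0.90 and 0.74, against an SD of 1.15 and a range of -3.48 to 5.67 over all analysed genes. No member passed 2-fold, which 31.7% of all analysed genes did, and none did so in YFP-medium against YFP-negative cells, where 12.0% of all genes did.

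**Figure D1:**
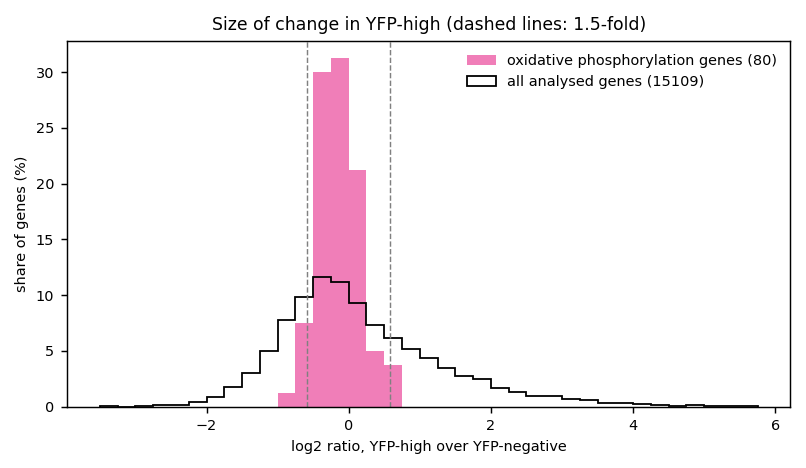
Share of genes (percent, vertical axis) by log2 ratio of CPM in YFP-high over YFP-negative cells (horizontal axis), for the 80 analysed oxidative phosphorylation genes (filled) and all 15109 analysed genes (outline), in bins of equal width, with dashed lines at 1.5-fold. The members stay between -0.90 and 0.74 while all genes spread from -3.48 to 5.67.

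The members also lay slightly below the middle of the transcriptome. Their median log2 ratio in YFP-high against YFP-negative cells was -0.14, against -0.04 over all analysed genes, and 56 of the 80 (70%) lay below 0, against 51.7% of all genes. How far below 0 depended on the scaling. Scaling by total counts shifted the median of all genes by -0.26, and the members moved to -0.41. The deposited TPM, which are corrected for length, shifted the median of all genes by -0.12. The members, of which 82 passed the filter in TPM, moved to -0.27. Relative to all genes the members stayed at -0.10 under both count scalings by size factors (TMM and DESeq2) and total counts, and at -0.11 in TPM. Over genes with at least 20 CPM they stood at -0.20 relative to all such genes. They stood at -0.03 relative to all genes once log2 ratios were corrected for length, the members' transcripts being short, with a median of 1266 bases against 3461 bases. Under total counts 0 members were higher and 20 lower, where 23.6% of all genes were higher and 36.8% lower. Of all called genes 39.0% were then higher instead of 53.6%.

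With TMM the members' median left 0 only at the high gate, while under total counts it was already -0.21 in YFP-medium and -0.41 in YFP-high cells. Set against YFP-medium cells, 70 of 80 members were below 0 in YFP-high cells (median log2 ratio -0.17), against 55.1% of all genes (median -0.07). NDUFB10 was called higher in that comparison and no member lower, where 17.8% of all analysed genes were higher and 10.9% lower, 28.7% together. The summed level of the 77 analysed subunits was 5419 CPM in parental cells, 5491 in the YFP-negative, 5446 in the YFP-low, 5560 in the YFP-medium and 5061 CPM in the YFP-high fraction. As a share of gene reads, with no scaling factor, this was 0.577% in parental cells, 0.599% in the YFP-negative, 0.555% in the YFP-low, 0.521% in the YFP-medium and 0.457% in the YFP-high fraction. Both scales were lowest in YFP-high cells, but YFP-medium stood highest in summed CPM and below YFP-low in the share.

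COX5A, a nuclear subunit of cytochrome c oxidase, was the member with the highest log2 ratio. It had 49.5 CPM in parental cells, 49.2 in the YFP-negative, 61.5 in the YFP-low, 80.6 in the YFP-medium and 82.7 CPM in the YFP-high fraction. The level thus stood higher at each gate, with most of the difference present at YFP-medium. COX5A was 1.68-fold higher in YFP-high than in YFP-negative cells (1.61 to 1.75) and 1.64-fold higher in YFP-medium than in YFP-negative cells (1.57 to 1.71). Its log2 ratio in YFP-high was 0.74, and 0.47 under total counts, which is under the 1.5-fold line.

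NDUFB10, a membrane arm subunit of complex I, was the other member called higher and followed no gate order. It had 53.2 CPM in parental cells, 41.3 in the YFP-negative, 39.6 in the YFP-low, 38.5 in the YFP-medium and 62.7 CPM in the YFP-high fraction. The 3 lower fractions were close together and below parental cells, and YFP-high alone stood above. NDUFB10 was 1.52-fold higher in YFP-high than in YFP-negative cells (1.45 to 1.59), and its log2 ratio of 0.60 is just past the threshold. It was not called with a pseudocount of 2 CPM, under total counts (log2 ratio 0.33), in TPM (0.46) or against parental cells (0.24). NDUFA4, once placed in complex I and now in complex IV, lay just outside at 0.56. It had 110.2 CPM in parental cells, 115 in the YFP-negative, 123 in the YFP-low, 145 in the YFP-medium and 170.3 CPM in the YFP-high fraction, higher at each gate, and was called with DESeq2 size factors.

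NDUFV3, a small accessory subunit of the NADH-oxidising module of complex I, had the lowest log2 ratio. It had 17.8 CPM in parental cells, 14.3 in the YFP-negative, 12.0 in the YFP-low, 10.8 in the YFP-medium and 7.46 CPM in the YFP-high fraction, a lower level at each gate. NDUFV3 was 1.92-fold lower in YFP-high than in YFP-negative cells (1.73 to 2.14), a log2 ratio of -0.90. Against parental cells the log2 ratio was -1.20, the one member past 2-fold in that comparison. Of all 15109 analysed genes 3220 were higher and 2249 lower there by the 2-fold rule.

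COX7A2L, which helps join complexes III and IV into supercomplexes, had 88.7 CPM in parental cells, 109 in the YFP-negative, 99.9 in the YFP-low, 90.6 in the YFP-medium and 68.5 CPM in the YFP-high fraction. It was 1.60-fold lower in YFP-high than in YFP-negative cells (1.54 to 1.66), but its log2 ratio against parental cells was -0.37 and not called. NDUFS1, the iron-sulphur subunit of the NADH module, is named because it lay just outside the threshold, at -0.58.

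**Figure D2:**
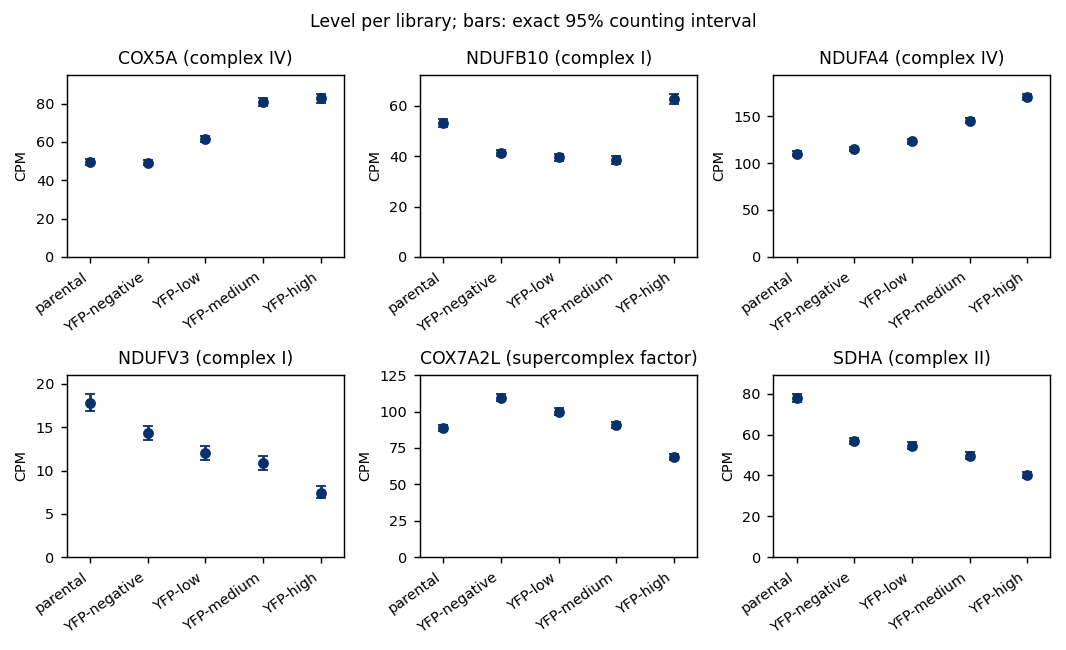
Level in CPM (vertical axis, from 0) of 6 members in the 5 libraries (horizontal axis, parental and then the YFP gates from negative to high), 1 library per point, with exact 95% counting intervals as bars. COX5A and NDUFA4 stand higher toward YFP-high and NDUFV3 and SDHA lower at every gate step. NDUFB10 is highest in YFP-high, with parental cells next and the other YFP fractions close together below both.

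Complex I is described by its peripheral and its membrane arm. The median log2 ratio in YFP-high against YFP-negative cells was -0.18 over the 37 analysed members, of which 1 was higher and 2 lower, where 54.7% of all analysed genes were called. The peripheral arm, which holds the flavin and the iron-sulphur clusters that carry electrons from NADH, had a median of -0.25 with 15 of 16 members below 0, and 0 higher and 2 lower, NDUFV3 among them. The membrane arm, where protons are pumped, had a median of -0.10 with 12 of 20 below 0, and 1 higher (NDUFB10) and 0 lower. These counts and medians were not tested against each other. Under total counts 0 were higher and 5 lower in each arm, with 16 of 16 peripheral and 16 of 20 membrane arm members below 0. With that scaling 23.6% of all genes were higher and 36.8% lower. With the length correction 14 of 16 peripheral and 10 of 20 membrane arm members lay below 0. In YFP-medium against YFP-negative cells the medians of both arms were near 0, at -0.003 for the peripheral and 0.02 for the membrane arm. NDUFB11, a membrane arm subunit, had 55.4 CPM in parental cells, 54.0 in the YFP-negative, 56.1 in the YFP-low, 68.0 in the YFP-medium and 70.5 CPM in the YFP-high fraction, a log2 ratio of 0.38 in YFP-high that was not called. Exons of NDUFB11 share 44.9% of their bases with RBM10, so its counts are uncertain. Per length, the most abundant complex I gene was NDUFS5, at 1023 TPM in parental cells, 1067 in the YFP-negative, 1050.0 in the YFP-low, 923 in the YFP-medium and 786 TPM in the YFP-high fraction.

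**Figure D3:**
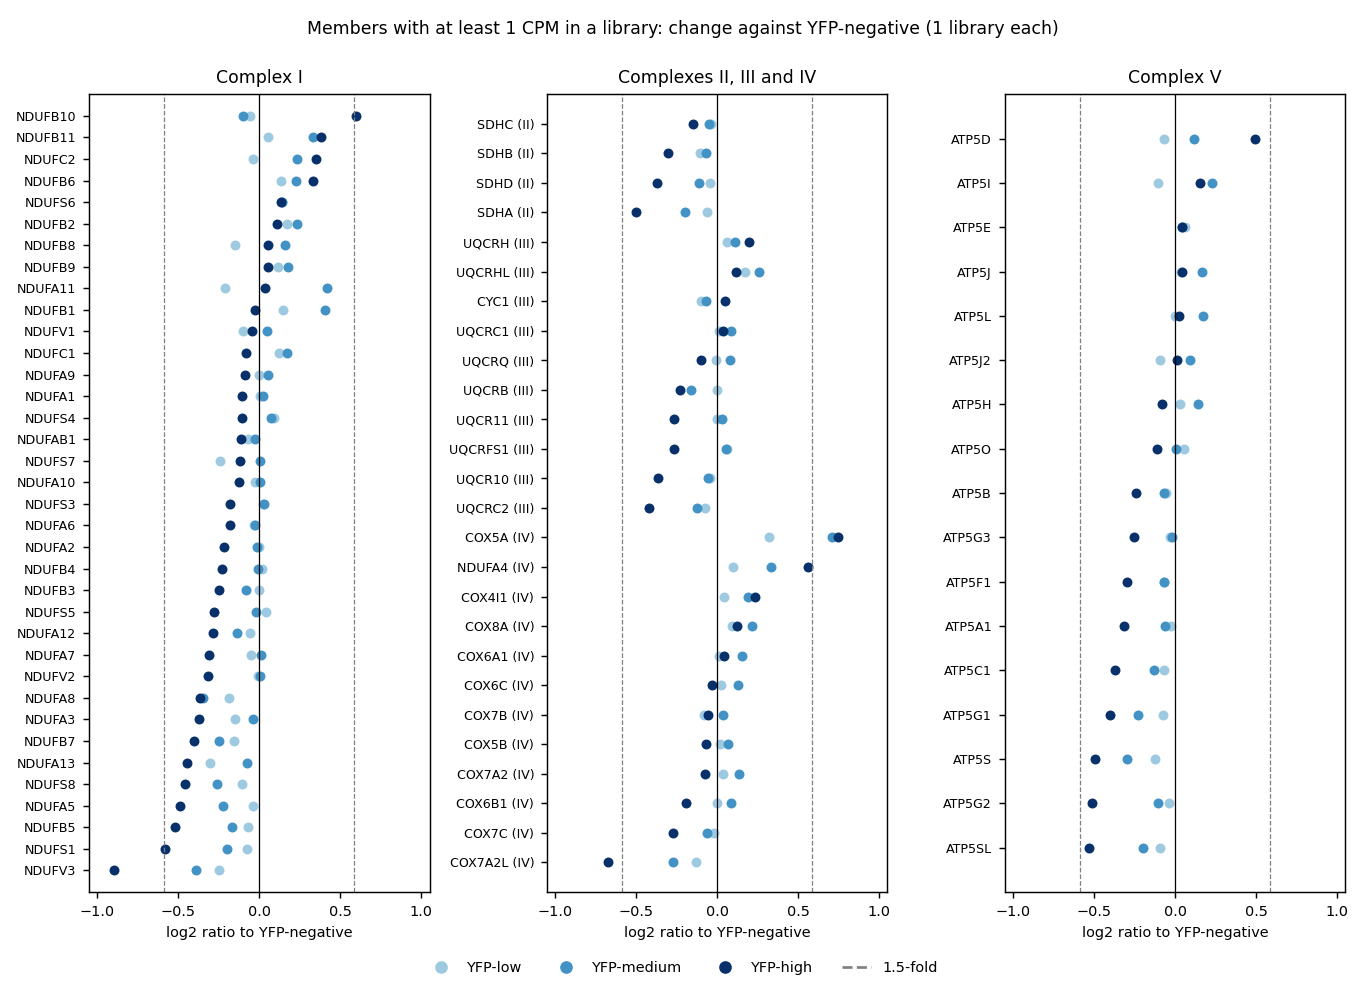
Log2 ratio of CPM to YFP-negative (horizontal axis) for 79 of the 80 analysed members (rows, by complex and ordered by YFP-high), with a point for each YFP-positive fraction and dashed lines at 1.5-fold. Points of YFP-low and YFP-medium crowd around 0, and of the members drawn only COX5A, NDUFB10, NDUFV3 and COX7A2L lie past a line in YFP-high.

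All 4 subunits of complex II, succinate dehydrogenase, had log2 ratios below 0 in all 3 YFP-positive fractions against YFP-negative cells, and none was called with TMM. Under total counts SDHA and SDHD were called lower in YFP-high cells, at log2 ratios of -0.77 and -0.64, and in TPM SDHA, at -0.62. The share of all genes called lower was 36.8% under total counts and 30.1% in TPM. SDHA, the flavin subunit that oxidises succinate, had 77.7 CPM in parental cells, 56.9 in the YFP-negative, 54.5 in the YFP-low, 49.6 in the YFP-medium and 40.1 CPM in the YFP-high fraction. Its log2 ratio in YFP-high was -0.50 and not called with TMM, and it was called lower against parental cells. SDHB, the iron-sulphur subunit, had 62.0 CPM in parental cells, 82.5 in the YFP-negative, 76.8 in the YFP-low, 78.7 in the YFP-medium and 66.6 CPM in the YFP-high fraction, a log2 ratio of -0.31 in YFP-high. Parental cells were thus highest for SDHA and lowest for SDHB. The membrane anchors SDHC and SDHD, which bind quinone, had log2 ratios of -0.15 and -0.37 in YFP-high. The complex had a median log2 ratio of -0.05 for YFP-low, -0.09 for YFP-medium and -0.34 for YFP-high cells.

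Complex III, the cytochrome bc1 complex, had a median log2 ratio of -0.17 in YFP-high cells with 6 of 10 members below 0 and none called. Under total counts all 10 lay below 0 and 2 were lower, where 36.8% of all genes were lower. UQCRC2, a core subunit, had 92.9 CPM in parental cells, 74.7 in the YFP-negative, 71.0 in the YFP-low, 68.5 in the YFP-medium and 55.7 CPM in the YFP-high fraction, a log2 ratio of -0.42. UQCR10, a small subunit, followed at -0.36. UQCRH, the hinge protein beside cytochrome c1, ran the other way, with 89.8 CPM in parental cells, 100.1 in the YFP-negative, 104 in the YFP-low, 108 in the YFP-medium and 115 CPM in the YFP-high fraction. Its log2 ratio of 0.20 in YFP-high turned to -0.07 under total counts, so its direction rests on the scaling. UQCRHL, a near copy of UQCRH, had 5.56 CPM in YFP-high and 5.09 CPM in YFP-negative cells, and reads of the pair are uncertain. UQCRFS1, the Rieske iron-sulphur protein, and CYC1, cytochrome c1, were chosen after their values were seen and had log2 ratios of -0.27 and 0.05 in YFP-high.

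Complex IV, cytochrome c oxidase, had the highest medians of the 5 complexes. Over its 12 analysed members the median log2 ratio was 0.02 for YFP-low, 0.13 for YFP-medium and -0.05 for YFP-high cells. The YFP-high median was -0.31 under total counts and 0.10 with the length correction, so its sign rests on the processing. With the length correction it was 0.14 relative to all genes, and 9 of 12 members lay above 0 instead of 5. In YFP-medium 10 of the 11 ubiquitous subunits lay above 0, with a median of 0.14. Under total counts the median of the 12 in YFP-medium was -0.08, so the sign rests on the scaling. Relative to all genes it was 0.15 with TMM and 0.13 with total counts. In TPM the filter let in 14 members of the complex, with a median of -0.07, or 0.05 relative to all genes. The TPM values are thus from a larger set than the 12. COX4I1, the largest nuclear subunit, which binds ATP, had 160 CPM in parental cells, 187 in the YFP-negative, 192 in the YFP-low, 213 in the YFP-medium and 220 CPM in the YFP-high fraction. Its log2 ratio of 0.23 in YFP-high was -0.04 under total counts. COX5B, a zinc-binding subunit, and COX6A1 had log2 ratios of -0.07 and 0.04 in YFP-high. COX6B1, COX7A2, COX7B and COX8A had -0.19, -0.08, -0.06 and 0.12.

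COX5A and COX5B are both present in each assembled complex IV, and the ratio of their transcripts was nearer 1 at the higher gates. Per length, COX5A stood at 0.263 of COX5B TPM in parental cells, 0.259 in the YFP-negative, 0.326 in the YFP-low, 0.426 in the YFP-medium and 0.467 in the YFP-high fraction. COX7C, the subunit with the highest TPM of all members, had 4729 TPM in parental cells, 5477 in the YFP-negative, 4795 in the YFP-low, 3905 in the YFP-medium and 3763 TPM in the YFP-high fraction. By counts its log2 ratio in YFP-high was -0.28, against -0.54 in TPM. The sum over complex IV therefore depended on the unit. In CPM the 11 analysed subunits summed to 890 in parental cells, 966 in the YFP-negative, 997 in the YFP-low, 1095 in the YFP-medium and 1060 in the YFP-high fraction. In TPM they summed to 11157 in parental cells, 12638 in the YFP-negative, 11761 in the YFP-low, 10861 in the YFP-medium and 10386 in the YFP-high fraction.

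Complex V, the ATP synthase, had a median log2 ratio of -0.24 in YFP-high cells, with 11 of 17 members below 0 and none called. Under total counts the median was -0.51, 16 of 17 lay below 0 and 5 were lower, where 36.8% of all genes were lower. In TPM 15 lay below 0 and 3 were lower, where 30.1% of all genes were lower. The c ring, through which protons pass, is encoded by ATP5G1, ATP5G2 and ATP5G3, whose mature proteins are the same. All 3 genes lay below 0, at -0.40, -0.51 and -0.25. ATP5G2 had 126 CPM in parental cells, 108 in the YFP-negative, 105 in the YFP-low, 100.2 in the YFP-medium and 75.5 CPM in the YFP-high fraction. ATP5G1 held 50.6% of the TPM of the 3 genes in parental cells, 50.3% in the YFP-negative, 49.4% in the YFP-low, 47.0% in the YFP-medium and 50.7% in the YFP-high fraction, a range of a few percentage points.

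Of the 5 genes of the catalytic head and central stalk of complex V, 2 lay above 0 in YFP-high cells, and ATP5D was the highest. ATP5D, the delta subunit of the central stalk, had 35.4 CPM in parental cells, 38.7 in the YFP-negative, 36.8 in the YFP-low, 42.0 in the YFP-medium and 54.6 CPM in the YFP-high fraction. The ratio of YFP-high to YFP-negative cells was 1.41 (1.35 to 1.48), a log2 ratio of 0.49 that was not called, and it was called against parental cells and with the length correction. ATP5B, the catalytic beta subunit and the most abundant gene of the complex by TPM, had 748 TPM in parental cells, 817 in the YFP-negative, 767 in the YFP-low, 718 in the YFP-medium and 633 TPM in the YFP-high fraction. Its log2 ratio of CPM in YFP-high was -0.24. ATP5SL, now named DMAC2, whose protein is described as an assembly factor of the complex I membrane arm, had a log2 ratio of -0.53. ATP5J, a peripheral stalk subunit with 23.1% of exon bases shared with GABPA and JAM2, had 0.04.

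Along the gates most members were lowest in YFP-high cells under every scaling run, but how they got there depended on the scaling. With TMM the lowest of the 4 fractions was YFP-high for 53 of 80 members (66.3%) and for 44.8% of all analysed genes. It was the lowest for 67 members under total counts, 63 in TPM and 49 with DESeq2 size factors. Over all genes these shares were 51.3%, 47.8% and 42.9%. The highest was YFP-medium for 31 members (38.8%) and for 14.7% of all genes. It was so for only 4 members under total counts, beside 8.92% of all genes, and for 6 in TPM, beside 9.96%. At every step 24 members (30%) were lower than at the gate before, beside 27.9% of all genes. Under total counts 53 members (66.3%) were, beside 40.0% of all genes, and in TPM 46, beside 33.7%. Only 6 members (7.5%), COX4I1, COX5A, NDUFA4, NDUFB6, NDUFB11 and UQCRH, were higher at every step, against 24.1% of all genes. Under total counts none was, against 17.4% of all genes.

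**Figure D4:**
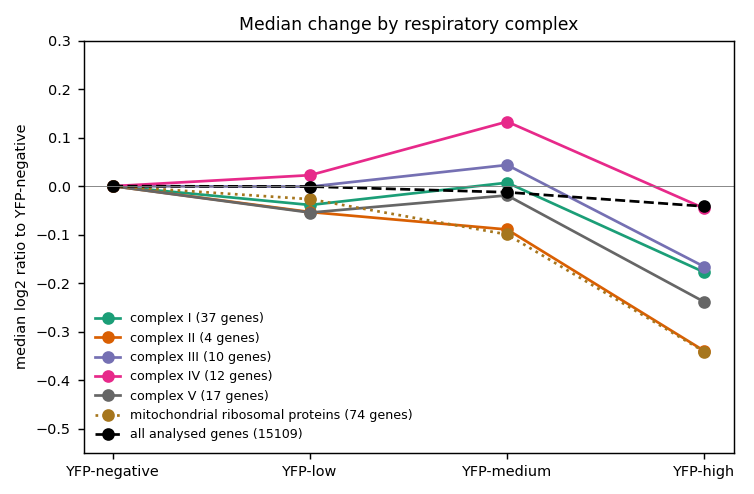
Median log2 ratio of CPM to YFP-negative (vertical axis) at the 4 YFP gates from negative to high (horizontal axis) for each respiratory complex, mitochondrial ribosomal proteins (dotted) and all analysed genes (dashed). Complex IV stands highest at YFP-medium (0.13), and complexes I, II, III and V lie at -0.17 to -0.34 in YFP-high.

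At the lower gates almost no member passed the rule. In YFP-medium against YFP-negative cells 1 of 80 was higher (COX5A) and 0 lower, where 19.0% of all analysed genes were higher and 11.8% lower, 30.8% together. The members' median log2 ratio there was 0.01, against -0.01 over all genes, and -0.21 under total counts, which shifted the median of all genes by -0.21 and the share of called genes that were higher to 39.4%, against 61.6%. In YFP-low against YFP-negative cells 0 of 80 members were called, where 7.27% of all genes were higher and 1.34% lower, 8.61% together. In YFP-medium against YFP-low cells NDUFA11 was higher and no member lower, where 9.64% of all genes were higher and 3.53% lower, 13.2% together. Log2 ratios in YFP-low ran from -0.31 (NDUFA13) to 0.32 (COX5A), with a median of -0.03. NDUFA11 and NDUFA13 are among the subunits counted low, at only a few CPM, as described below.

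The YFP-negative fraction was also compared with parental cells. In YFP-negative against parental cells 0 of 80 members were called, where 6.61% of all genes were higher and 9.02% lower, 15.6% together. The log2 ratios ran from -0.45 for SDHA to 0.41 for SDHB, with a median of 0.02. These 2 subunits of the same complex held the ends of the range. With parental cells as the baseline for YFP-high, 3 members were higher (ATP5D, COX5A and NDUFA4) and 12 lower, where 30.1% of all genes were higher and 28.1% lower, 58.2% together. For YFP-medium against parental cells 2 members were higher and 3 lower, where 22.0% of all genes were higher and 19.0% lower, 41.0% together. COX7A2L was not among the 12, and NDUFB10 not among the 3.

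Tissue-restricted paralogs were at or near 0 reads. COX7B2, a testis form, had 0 reads in every library, which allows up to 3 reads, or 0.0469 CPM in YFP-high and 0.0360 CPM in YFP-negative cells. The 2 read-through transcripts also had 0 reads. In the GENCODE annotation of GRCh38, NDUFC2-KCTD14 shares 100% and ATP5J2-PTCD1 93.8% of exon bases with other counted genes. Their 0 reads therefore set no limit on their level. COX4I2, the lung and hypoxia form of COX4I1, had 0 reads in 4 libraries and 1 in YFP-low. COX6A2, the heart and muscle form of COX6A1, had 6 reads in parental cells, 9 in the YFP-negative, 1 in the YFP-low, 2 in the YFP-medium and 15 in the YFP-high fraction. COX6B2, a testis form, had 25 reads in parental cells, 19 in the YFP-negative, 4 in the YFP-low, 7 in the YFP-medium and 32 in the YFP-high fraction. COX7A1, another heart and muscle form, had 32 to 46 reads over the 5 libraries. COX6A2 and COX6B2 thus had their lowest counts in YFP-low and their highest in YFP-high, at levels under 1 CPM. NDUFA4L2, a hypoxia-induced paralog of NDUFA4, had 8 reads in parental cells, 5 in the YFP-negative fraction and 1 in each YFP-positive fraction. COX8C had at most 2 reads and ATP5L2 at most 4.

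Some other subunits were also counted low, chosen for mention after their values were seen. ATP5E, the epsilon subunit of the ATP synthase, had 1.41 to 1.86 CPM over the 5 libraries, and ATP5I 1.60 to 2.32 CPM. NDUFA11, NDUFA13 and NDUFB8 of the complex I membrane arm had 1.82 to 3.30 CPM. In the GENCODE annotation of GRCh38, exons of ATP5I share 61.6% of their bases with MYL5, those of ATP5E 23.2% with TUBB1 and those of NDUFB8 16.3% with HIF1AN, while NDUFA11 shares none. The part of overlap, of pseudogene copies and of reads without a unique place (7.64% to 7.77% of each library) in these low counts was not tested.

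Genes that assemble and translate the complexes were counted by the same rule, by which 29.3% of all analysed genes were higher and 25.4% lower in YFP-high cells. Among the 10 complex I assembly factors analysed the median log2 ratio in YFP-high against YFP-negative cells was -0.38, with 0 higher and 2 lower. TIMMDC1, which helps build the membrane arm, had 18.2 CPM in YFP-high and 38.6 CPM in YFP-negative cells, 2.12-fold lower (1.98 to 2.27). NUBPL, which delivers iron-sulphur clusters to complex I, was 1.83-fold lower (1.63 to 2.06). Among the 21 assembly factors of complexes II to V, the median was -0.15, and 4 were higher and 6 lower. TMEM70, which promotes ATP synthase assembly, had 103 CPM in YFP-high and 31.3 CPM in YFP-negative cells, 3.28-fold higher (3.14 to 3.44). Its level was 68.6 CPM in YFP-low and 107 CPM in YFP-medium cells. ATPAF1, a chaperone of the F1 beta subunit, was 2.36-fold higher (2.19 to 2.55). LYRM7, which stabilises the Rieske protein, was 2.25-fold lower (2.02 to 2.51), and COX18, which inserts a mitochondrially encoded oxidase subunit, was 2.16-fold lower (1.89 to 2.47).

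The mitochondrial ribosomal list held 74 analysed genes with names in MRPL or MRPS, of which 1, MRPL23-AS1, is an antisense RNA that was not called and lay below 0. Of the 74, 3 were higher and 16 lower in YFP-high cells, where 29.3% of all genes were higher and 25.4% lower, and 66 lay below 0. Their median log2 ratio was -0.34, which is -0.30 relative to all genes with TMM and with total counts, and -0.19 with the length correction. Under total counts 2 of them were higher and 38 lower, as were 0 and 5 of the complex I assembly factors. With that scaling 23.6% of all genes were higher and 36.8% lower. MRPL36 was the lowest, at 6.79 CPM in YFP-high and 17.6 CPM in YFP-negative cells, and MRPS26 the highest, at 60.5 CPM in YFP-high and 26.1 CPM in YFP-negative cells. The mitochondrially encoded subunits are not analysed here.

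Known regulators of these genes were called in both directions, 2 of 18 higher and 6 lower in YFP-high cells, where 54.7% of all analysed genes were called. YY1, a factor with sites at many respiratory genes, had 108 CPM in parental cells, 115 in the YFP-negative, 197 in the YFP-low, 313 in the YFP-medium and 366 CPM in the YFP-high fraction, 3.18-fold higher in YFP-high than in YFP-negative cells (3.10 to 3.25). GABPB1, a subunit of the ETS factor GABP, was 1.94-fold higher (1.85 to 2.04). PPRC1, a coactivator related to PGC-1alpha, had 53.3 CPM in YFP-high and 113 CPM in YFP-negative cells, 2.11-fold lower (2.03 to 2.19). POLG2, the accessory subunit of the mitochondrial DNA polymerase, was 2.91-fold lower (2.59 to 3.28). NRF1, TFAM, GABPA and ESRRA, named because they are the factors most often tied to respiratory genes and chosen after their values were seen, had log2 ratios of 0.04, 0.07, 0.19 and -0.40, none called.

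Letters of these factors were counted in the members' promoters. NRF1 letters stood in 13 of the 71 member promoters (18.3%) and in 3.27% of all 27305 promoters, or 5.40% of the 11085 promoters of analysed genes. ETS letters stood in 19 (26.8%) against 10.7% and 18.3%, and YY1 letters in 11 (15.5%) against 3.03% and 5.12%. E2F letters stood in 7 (9.86%), against 2.79% of all promoters and 4.48% of those of analysed genes. The 7 were ATP5L, COX7B, COX7C, COX8A, NDUFA13, NDUFC1 and NDUFS6, and none of them was called against YFP-negative cells with TMM. Among members called in YFP-high cells, COX5A, NDUFB10, NDUFV3 and COX7A2L hold none of these letters in the window. Only 6.25% of the 80 analysed members were called there, so an absence of overlap with 7 members says little. A match is a run of letters and not a measured site.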

How the data were processed

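RNA sequencing of 5 U2OS libraries was analysed from 2 tables of the whole series, with samples matched to columns by their labels. The authors deposited raw read counts per gene name. Tools in the submitters' processing notes are HTSeq 0.6.0, HISAT2 2.0.3, Trimmomatic 0.36, CASAVA 1.8.2 and bcl2fastq, with hg19 as the build. The counting's annotation and strand setting were not given in the sources used here. Reads of antisense or overlapping neighbours therefore cannot be assigned with certainty. The authors also deposited TPM, made by a tool not given in the sources used here. Members' gene names were matched to RefSeq (90 of 90), where 21 have another current symbol.

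CPM were made from counts with TMM factors (edgeR 4.0.16, R 4.3.3) between 0.904 (YFP-high) and 1.09 (YFP-negative). Genes held 75.7% to 77.7% of reads, and the other rows, including one named unknown (at most 0.00073%), were left out. A gene entered the analysis if 1 or more libraries held 1 CPM of it. For the TPM setting the filter was 1 TPM instead, and calls used the 1.5-fold size alone, with no interval. Folds have no pseudocount, log2 ratios add 0.5 CPM, which understates low genes. Intervals follow Clopper-Pearson, from a gene's counts in both libraries, and PCR copies are not independent molecules. The call rule was tested on simulated data with known changes, as a check of the code and not of any result. Other settings tried were total counts, TPM, size factors of DESeq2 1.42.0, other filters (none, 5 CPM), a pseudocount of 2 CPM, a 2-fold rule, the parental baseline, and corrections by a running median of 501 genes for GC content (values for 91.7% of analysed genes) and for length (counts over TPM). A filter of 20 CPM was chosen after seeing the data.

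Members, gene lists and rules were chosen with earlier results of these data known. Named are E2F1 and, of the members, the 2 highest and 2 lowest of each complex in YFP-high with at least 5 CPM, those past 1.5-fold, paralog sets, all of complex II, the most abundant of each complex and those with no more than 5 reads in a library, and of each other list up to 4 genes with the largest change. One member that counts and medians include is not reported here by name. Members outside this rule are said to be chosen after their values were seen, except those described by their order along the gates or their promoter letters. Python 3.11.15, pandas 2.3.3, numpy 2.4.6, scipy 1.17.1 and matplotlib 3.10.9 were used.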

Additional observations from a re-analysis of the deposited data

How the results depend on the processing

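No paired analysis was possible because each group holds 1 library, and for the same reason no replicate could be left out. Moves of a median were set against the median half-width of the members' single-gene counting intervals. That half-width is not the counting error of the median itself. In YFP-high against YFP-negative cells the members' median log2 ratio was -0.14. It moved by more than the half-width to -0.41 with total counts, -0.27 in deposited TPM and -0.075 with the length correction. The 2 members called higher became 0 with total counts (23.6% of all genes) or a 2-fold rule (20.5%). With a pseudocount of 2 CPM 1 was higher (26.4% of all genes). The 3 called lower became 20 with total counts (36.8% of all genes) and 12 in TPM (30.1%). They became 12 against parental cells (28.1%) and 0 with the 2-fold rule (11.3%). In YFP-medium the median (0.01) moved to -0.21 with total counts and -0.15 in TPM. The 1 member higher there became 0 with total counts (13.9% of all genes), TPM (16.4%) or the 2-fold rule (9.76%). Against parental cells 2 were higher (22.0% of all genes). The 0 lower became 1 with total counts (21.3%), 1 in TPM (16.1%) and 3 against parental cells (19.0%). In YFP-low the median (-0.03) moved to -0.13 with total counts, and 1 member was lower in TPM (2.58% of all genes). The member lower in TPM in YFP-low and in YFP-medium was COX6A2, which has few reads and passed the filter only in TPM. It had 3.21 TPM in the YFP-negative, 0.355 in the YFP-low, 0.712 in the YFP-medium and 6.04 TPM in the YFP-high fraction. In YFP-high it counted as higher in TPM, beside COX5A. Total counts and TPM differ from TMM by construction, shifting all genes together or by length. Calls in TPM also used no interval, and other causes were not tested. In YFP-low, 67.3% of called genes were higher with total counts and 72.6% in TPM, against 84.5%, and in YFP-medium 50.5% in TPM. Filters of 5 and 20 CPM, no filter, DESeq2 size factors and the GC correction left these medians within that half-width and counts within 1.5 times. Relative to all genes, however, the 20 CPM filter moved the members from -0.10 to -0.20 in YFP-high and from 0.02 to -0.06 in YFP-medium cells. No called member changed direction under any alternative run, and of 1240 values of single named genes 944 stayed within their counting error. Depth limits members at or under 3 reads, and 1 library per group limits all others.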

Other observations

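Other mitochondrial genes were counted in 3 further lists, where 54.7% of all analysed genes were called (29.3% higher and 25.4% lower), a share above that of each list. In the list of the citric acid cycle and pyruvate dehydrogenase, 5 of 24 genes were higher and 3 lower in YFP-high against YFP-negative cells, with a median log2 ratio of -0.07, and the 4 with the largest differences all act on pyruvate dehydrogenase. PDK3, a kinase that switches the enzyme off, had 19.5 CPM in parental cells, 15.1 in the YFP-negative, 20.5 in the YFP-low, 31.6 in the YFP-medium and 62.1 CPM in the YFP-high fraction, 4.12-fold higher in YFP-high than in YFP-negative cells (3.86 to 4.39). PDK1, another such kinase, was 2.59-fold higher (2.41 to 2.78), and PDK4 was 3.98-fold higher (3.20 to 4.98) at a level of 5.24 CPM in YFP-high and 1.32 CPM in YFP-negative cells. PDP2, a phosphatase that switches the enzyme back on, had 11.0 CPM in YFP-high and 30.1 CPM in YFP-negative cells, 2.73-fold lower (2.51 to 2.97). The list also holds PDK2 and PDP1, a further kinase and a further phosphatase of the enzyme, which are not among these 4. The 4 were picked for the size of their difference, so they do not give a direction for these regulators as a group. The list was chosen with earlier results known, the libraries are single, and enzyme activity was not measured.

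Among cytochrome c, quinone and carrier genes 2 of 19 were higher and 5 lower. SLC25A4, the heart and muscle ADP/ATP carrier, had 75.3 CPM in YFP-high and 21.6 CPM in YFP-negative cells, 3.49-fold higher (3.30 to 3.68). GPD2, the glycerol phosphate dehydrogenase that feeds quinone, was 3.21-fold higher (3.12 to 3.31). DHODH, which makes pyrimidines and also feeds quinone, was 3.09-fold lower (2.68 to 3.56), and COQ9, needed to make quinone, was 2.29-fold lower (2.13 to 2.46). Among fission, fusion and import genes 1 of 18 was higher and 3 lower. MFN2, an outer membrane fusion protein, was 2.15-fold higher (2.11 to 2.19), while its relative MFN1 was 1.60-fold lower (1.53 to 1.67), and the import receptor TOMM20 and channel TOMM40 were 1.67-fold (1.62 to 1.73) and 1.64-fold lower (1.60 to 1.69). ATPIF1, the inhibitor of the ATP synthase, had a log2 ratio of -0.38 and was not called.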
